A study of Homo sapiens with 36 samples.

Results

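The data described here compare esiRNA against HDAC4 with control esiRNA in oxaliplatin-treated cells that lack FBXW7. HCT-116 is a human colorectal carcinoma line, and the KO cells are its FBXW7-/- derivative. The 6 libraries were chosen by their labels: 3 of KO cells with control esiRNA (esiCT) and 3 with esiRNA against HDAC4 (esiHDAC4), both for 48 h and both with 50 µM oxaliplatin (OXPT) for the last 24 h. They are 6 of 36 libraries of polyA RNA in the series. The 6 KO libraries with esiCT or esiHDAC4 and no OXPT served as a separate set for the same silencing, and 3 KO OXPT libraries that carried esiCT and the class IIa HDAC degrader #11 are given beside them; the label entries give #11 at more than 1 dose, so its dose is not settled. The esiRNAs act transiently on a pool of cells, and nothing in the labels says that libraries of a group came from separate cultures, so p-values measure the spread between libraries, which may be technical. In the main fits this spread was estimated over 24 libraries of 8 groups. These also included untreated KO cells with #11, and wild-type (WT) HCT-116 cells with esiCT, with and without OXPT.

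HDAC4 belongs with HDAC5, HDAC7 and HDAC9 to the class IIa histone deacetylases, which have little enzymatic activity of their own, bind MEF2 transcription factors and bring corepressor complexes to chromatin. FBXW7 is the substrate receptor of an SCF ubiquitin ligase and is lost or mutated in part of colorectal cancers. Oxaliplatin forms platinum adducts on DNA and blocks replication and transcription. The comparison addresses whether removing HDAC4 changes the transcriptome of KO cells, which the study treats as refractory to OXPT. An esiRNA is a pool of short interfering RNAs cut from a longer double-stranded RNA.

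The 6 libraries held 10725966 to 19582737 counts on genes. KO esiCT OXPT replicate 3 stood apart, with 22.3% of its reads unmapped against 9.46% to 13.4% in the other 5, with the fewest counts on genes, and with a TMM factor of 0.789 against 0.909 to 1.085. Values without it are given beside most results below, and for several gene lists also values without both OXPT libraries numbered 3, since the numbers pair the libraries. Of 13 colon epithelial markers 9 passed the count minimum, among them EPCAM, CDH1, KRT8, KRT18, KRT19 and CDX2, and their summed level was 8616 to 21800 CPM (counts scaled to the library size after TMM normalisation). KRT20, VIL1, CDX1 and CEACAM5 had few or no counts. Of 15 markers of blood, endothelial, fibroblast, muscle, endocrine and liver cells 4 passed, and the summed level of the list was 59.3 to 101 CPM in esiCT and 71.8 to 87.3 CPM in esiHDAC4 libraries.

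HDAC4 was lower in all 3 esiHDAC4 libraries. Its level was 6.28, 5.71 and 7.50 CPM in the esiCT OXPT libraries and 4.13, 3.33 and 4.19 CPM in the esiHDAC4 OXPT libraries, in the order of the replicate numbers. The groups did not overlap, and the mean was 40.2% lower with esiHDAC4, with single pairs between 34.2% and 44.1%. The log2 fold change was -0.74 ± 0.25 (SE, n = 3 and 3), with an edgeR p of 0.00822 and an adjusted p of 1 over 12356 genes, and it was -0.62 without esiCT OXPT replicate 3. The exact two-sided permutation test over the libraries gave p = 0.1, the smallest that 3 against 3 allow. Without OXPT the HDAC4 message was higher throughout, 18.4, 14 and 24.9 CPM with esiCT and 8.94, 8.80 and 14.9 CPM with esiHDAC4, so that these groups overlapped, with a difference of 43.1% (log2 fold change -0.82 ± 0.24 SE, exact permutation p = 0.2). HDAC4, ENSG00000068024.18, lies at chr2:239048168-239401654 on the minus strand of hg38.

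The other class IIa members differed less. HDAC5 was at 51.9, 51.0 and 66.1 CPM with esiCT and 48.7, 49.2 and 62.3 CPM with esiHDAC4 (log2 fold change -0.08 ± 0.20 SE). HDAC7 was at 41.8, 54.0 and 28.2 CPM with esiCT and 39.1, 50.2 and 37.5 CPM with esiHDAC4 (0.03 ± 0.23 SE). In both genes the groups overlapped, and without esiCT OXPT replicate 3 the values were 0.06 for HDAC5 and -0.17 for HDAC7. HDAC9 did not reach the count minimum, with raw counts of 12, 5 and 2 with esiCT and 14, 6 and 4 with esiHDAC4. Of 14 measured MEF2 factors and MEF2 targets, which class IIa HDACs are known to bind and to repress, respectively, 10 were higher and 0 passed a test. Their median was 0.09 on the log2 scale beside 0.005 over all genes tested. Without esiCT OXPT replicate 3 it was 0.15 beside 0.05 over all genes, and without number 3 of both groups 0.16 beside 0.01.

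**Figure D1:**
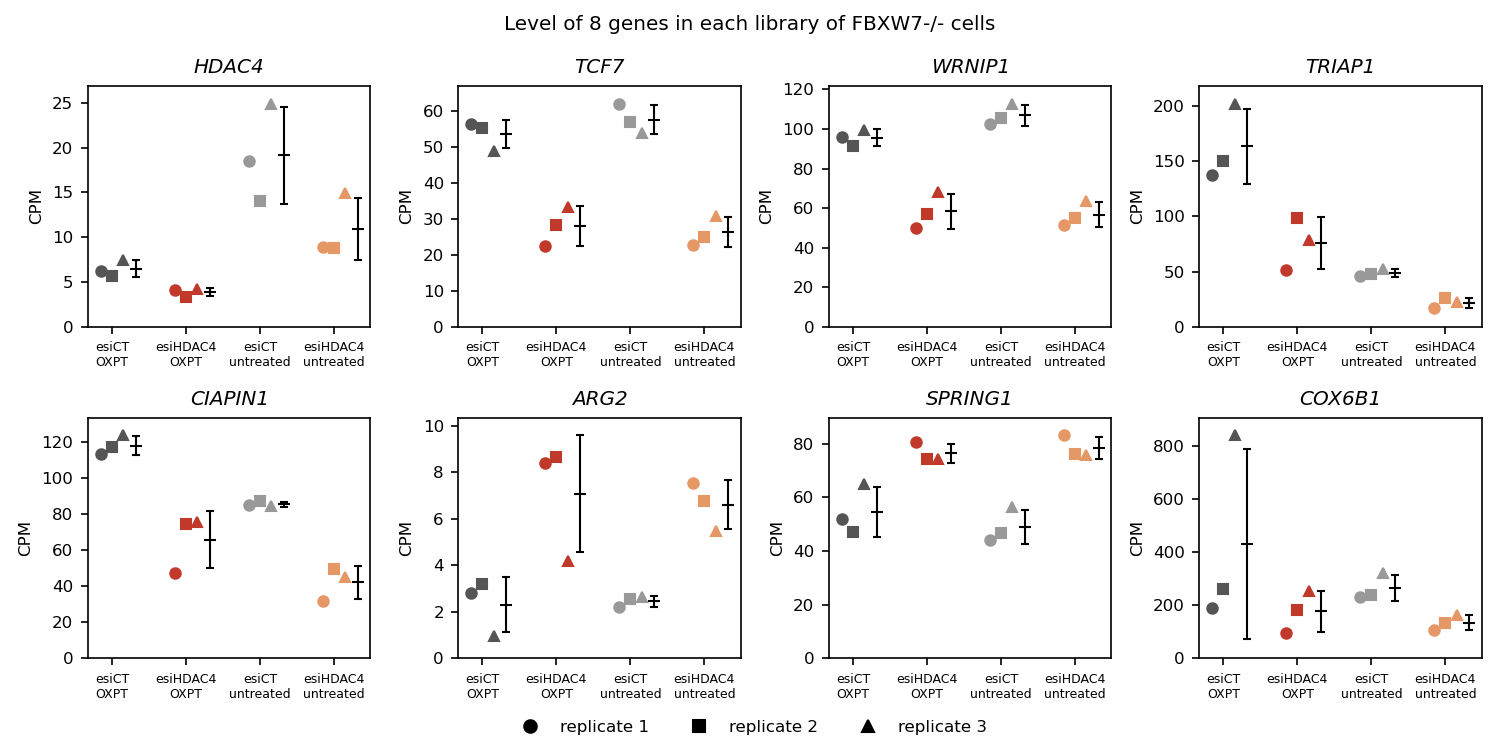
Level of 8 genes (y axis, CPM after TMM scaling) in the 4 groups of KO libraries with esiCT or esiHDAC4 (x axis). Each point is 1 library, with its shape giving the replicate number, and the bar beside each group is the mean ± SD (n = 3). HDAC4, TCF7, WRNIP1, TRIAP1 and CIAPIN1 are lower with esiHDAC4 under OXPT in every library, ARG2 and SPRING1 are higher, and the COX6B1 control group is pulled up by replicate 3 at 842 CPM.

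Across all genes the test set by the design called none. A call needed a fold change over 1.5 and an adjusted p under 0.05 in edgeR's quasi-likelihood test, which 0 of 12356 genes (0%) met under OXPT, and the smallest adjusted p was 0.442, for TCF7. At an unadjusted p under 0.05 edgeR had 281 genes lower (2.27%) and 92 higher (0.745%). These 373 genes are a smaller share of the 12356 than the 0.05 that such a limit passes where no gene differs. They are sets for description and not calls. These counts changed with single libraries: 138 were lower and 103 higher without esiCT OXPT replicate 3, 693 and 251 without replicate 1, and 520 and 144 without replicate 2. Leaving out esiHDAC4 OXPT replicates 1, 2 or 3 gave 121, 210 or 570 lower and 83, 107 or 126 higher. Groups that did not overlap were found for 310 genes lower (2.51%) and 260 higher (2.1%), and all 3 pairs went down for 2251 genes (18.2%) and up for 2379 (19.3%). With the replicate number as a block, edgeR called 0 genes, with 365 lower and 140 higher at unadjusted p. DESeq2 called 8 lower (0.0647%) and 1 higher (0.00809%), and 21 lower and 2 higher with the replicate block. Without esiCT OXPT replicate 3 it called 4 genes, 2 in each direction.

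Among the genes with the lowest p, TCF7, a TCF/LEF factor of the Wnt pathway (chr5:134114681-134151865), was at 56.3, 55.2 and 48.9 CPM with esiCT and at 22.4, 28.4 and 33.2 CPM with esiHDAC4. Its log2 fold change was -0.94 ± 0.18 (SE), with an adjusted p of 1.47e-04 by DESeq2 and of 0.442 by edgeR. The groups were far apart, and leaving out esiCT OXPT replicate 3 gave -0.99. KDM2B, a histone demethylase that brings a Polycomb complex to CpG islands, went from 35.4, 27.9 and 39.9 CPM to 17.3, 14.9 and 21 CPM (-0.96 ± 0.24 SE, DESeq2 adjusted p of 0.0701). CRTC3, a coactivator of CREB, went from 25, 23.9 and 27.3 CPM to 14.8, 16.1 and 16.4 CPM (-0.69 ± 0.18 SE, DESeq2 adjusted p of 0.0434). TCF7 and KDM2B were picked among genes whose groups did not overlap, so their lack of overlap follows from the choice. CRTC3, named because DESeq2 called it, did not overlap either. Without esiCT OXPT replicate 3 KDM2B was at -0.83 and CRTC3 at -0.63. PURA, which binds single-stranded nucleic acids, is weaker without replicate 3: it went from 33.5, 37.3 and 66.5 CPM to 23.5, 25.7 and 27.7 CPM, and its difference of -0.83 ± 0.21 (SE) became -0.46.

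Of the other genes with the lowest p, WRNIP1, a partner of the Werner helicase at stalled replication forks (chr6:2765393-2786952), was at 96.1, 91.2 and 99.6 CPM with esiCT and at 50.1, 56.8 and 68.0 CPM with esiHDAC4. Its log2 fold change was -0.71 ± 0.16 (SE), with an adjusted p of 0.00304 by DESeq2 and 0.538 by edgeR. TRIAP1, a p53 target whose small product serves lipid transfer in mitochondria (chr12:120443964-120446384), went from 138, 150 and 202 CPM to 51.6, 98.3 and 78.6 CPM (-1.10 ± 0.25 SE, DESeq2 adjusted p of 0.0283). It was the member of the p53 list with the lowest p, and it went the other way from most of that list. CIAPIN1, a factor of cytosolic iron-sulfur cluster assembly, went from 113, 117 and 124 CPM to 47.5, 74.4 and 75.8 CPM (-0.84 ± 0.20 SE). SNX12, a sorting nexin of endosomes, went from 55.0, 44.5 and 83.3 CPM to 20.5, 25.2 and 38.7 CPM (-1.12 ± 0.26 SE). UBE2R2, a ubiquitin-conjugating enzyme that works with cullin ligases, went from 121, 125 and 203 CPM to 60.3, 82.0 and 96.8 CPM (-0.91 ± 0.23 SE). C2orf68 went from 30.4, 33.8 and 39.0 CPM to 18.9, 23.9 and 21.7 CPM (-0.68 ± 0.17 SE). These 6 genes were picked among those whose groups did not overlap, so their lack of overlap follows from the choice. Without esiCT OXPT replicate 3 the differences were -0.68 for WRNIP1, -0.92 for TRIAP1, -0.80 for CIAPIN1, -0.82 for SNX12, -0.63 for UBE2R2 and -0.58 for C2orf68.

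The lncRNA ENSG00000291214 on chromosome 17 was at 3.73, 4.48 and 9.52 CPM with esiCT and at 2.49, 1.76 and 2.14 CPM with esiHDAC4, a log2 fold change of -1.45 ± 0.32 (SE). The difference was -0.94 without replicate 3 and -0.28 in untreated cells. Among the genes that DESeq2 called lower, ENSG00000291214 was the 1 that does not code for a protein.

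Among the genes higher with esiHDAC4, ARG2, the mitochondrial arginase, was at 2.80, 3.18 and 0.952 CPM with esiCT and at 8.39, 8.66 and 4.19 CPM with esiHDAC4 (log2 fold change 1.58 ± 0.37 SE, DESeq2 adjusted p of 0.0434). The groups did not overlap, and 39.6% of its exon bases are shared with VTI1B, so that reads in them cannot be told apart without strand. Over 36 alternatives of the processing the log2 fold change of ARG2 kept its direction but ranged from 0.18 to 1.85, so its size depended on the processing. THBS1, the matrix protein thrombospondin, went from 14.1, 15.2 and 10.5 CPM to 38.8, 26.8 and 20.9 CPM (1.12 ± 0.35 SE). MYC, a proto-oncogene and a known FBXW7 substrate at the protein level, went from 156, 146 and 111 CPM to 226, 192 and 201 CPM (0.58 ± 0.21 SE). Genes of sterol and lipid control were SPRING1, a regulator of SREBP activation, from 51.9, 47.1 and 65.1 CPM to 80.5, 74.3 and 74.4 CPM (0.48 ± 0.15 SE), and NR1H2, the liver X receptor beta, with 22.1% of exon bases shared with other genes (0.60 ± 0.21 SE). ETFA, a subunit of the mitochondrial electron transfer flavoprotein, and the phosphatase DUSP3 were each higher by 0.52 on the log2 scale without passing a correction, and COMMD2, SUSD2, LIX1L and CNIH1 lay between 0.51 and 0.82. All of these 11 genes but ARG2 were picked among genes whose groups did not overlap, so their lack of overlap follows from the choice. Without esiCT OXPT replicate 3 each was still higher, from 0.46 for MYC to 1.26 for ARG2. SLC2A3, the glucose transporter GLUT3, which DESeq2 called with the replicate block alone, was at 7.85, 5.06 and 18.0 CPM with esiCT and at 25.1, 17.4 and 49.9 CPM with esiHDAC4 (1.59 ± 0.49 SE, 2.25 without replicate 3). Its groups overlapped, but it was higher within every pair.

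Untreated KO cells gave the same silencing in libraries of their own. Of the 281 genes lower at unadjusted p under OXPT, 268 (95.4%) were also lower in the untreated comparison and 126 passed an unadjusted p there, where 278 of all genes did (2.25%). Of the 92 higher, 86 (93.5%) were higher and 27 passed, where 111 of all genes did (0.898%). The median log2 fold change of the 281 was -0.73 under OXPT, -0.49 untreated and -0.39 under OXPT without replicate 3, and that of the 92 was 0.68, 0.41 and 0.58. TCF7 was at 61.9, 57.0 and 53.8 CPM with esiCT and 22.8, 25 and 30.9 CPM with esiHDAC4 (-1.13 ± 0.18 SE), and was the 1 gene that edgeR called in untreated cells (0.00809%, adjusted p of 0.0375). That call was lost without any 1 of the esiCT untreated libraries or without esiHDAC4 untreated replicate 1 or 2, and without several libraries outside the comparison. The other differences were -0.92 ± 0.16 (SE) for WRNIP1, -1.15 ± 0.25 for TRIAP1, -1.02 ± 0.21 for CIAPIN1, -1.25 ± 0.27 for SNX12 and 1.43 ± 0.37 for ARG2. TRIAP1 stood out by level, since its untreated values of 46.0, 47.6 and 52.5 CPM with esiCT and 17.1, 25.9 and 22.9 CPM with esiHDAC4 were below those under OXPT with the same esiRNA, while the silencing difference was nearly the same. Across the 12356 genes the differences in the 2 states had the same sign in 73.9% and a Pearson r of 0.64 (Spearman rho 0.64), which is a description, since genes are not replicates and libraries of 1 number share their deviations.

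**Figure D2:**
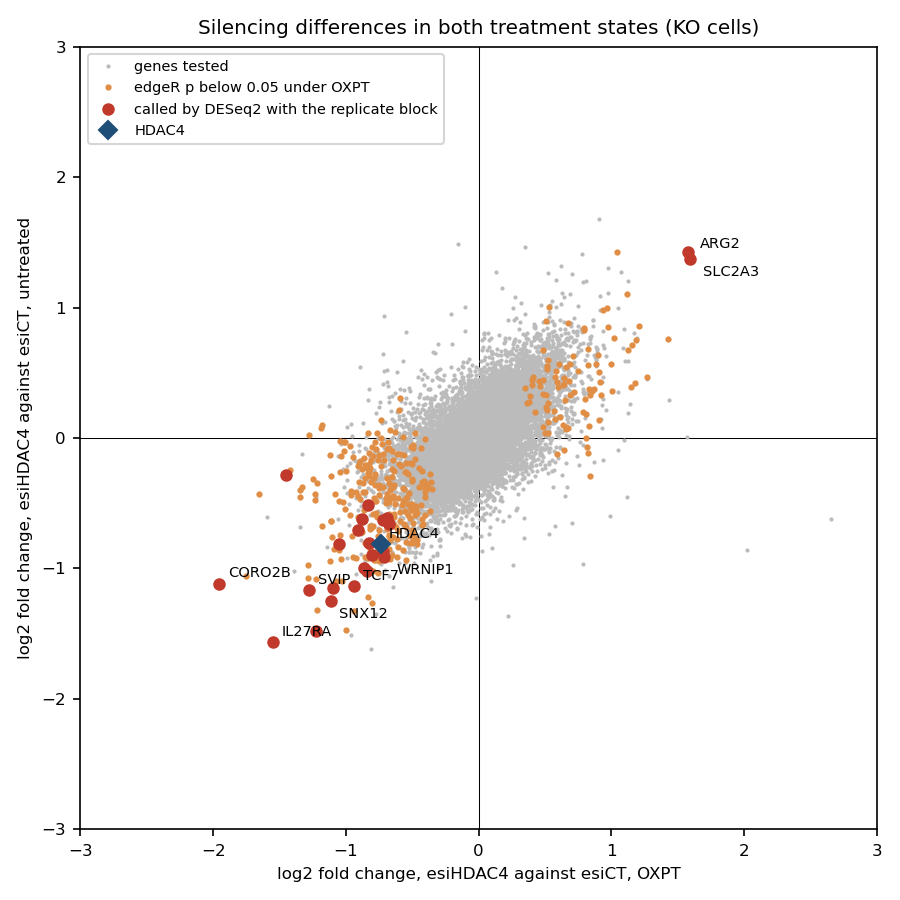
Log2 fold change of esiHDAC4 against esiCT under OXPT (x axis) and in untreated cells (y axis) for the 12356 genes tested, each 1 grey point. Orange points had an unadjusted edgeR p below 0.05 under OXPT, red points are the 23 genes called under OXPT by DESeq2 with the replicate block, and the diamond is HDAC4; the red genes lie on the same side of 0 in both states.

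The test of whether silencing acted differently under OXPT called no gene. The edgeR interaction of esiHDAC4 and OXPT passed in 0 of 12356 genes (0%), where 18 had an unadjusted p under 0.05, and 0 by DESeq2, where 26 did. The interaction was 0.20 ± 0.25 (SE) on the log2 scale for TCF7, 0.20 ± 0.22 for WRNIP1, 0.05 ± 0.34 for TRIAP1 and 0.08 ± 0.35 for HDAC4. For ENSG00000291214 it was -1.17 ± 0.45 (SE).

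Averaged over both states, a contrast added after the values were seen, edgeR called 34 genes lower (0.275%) and 3 higher (0.0243%). TCF7 fell by 1.04 on the log2 scale (adjusted p of 8.29e-04), WRNIP1 fell by 0.81 (adjusted p of 0.00244), and TMEM109, TRIAP1, CIAPIN1 and SNX12 followed, each at an adjusted p of 0.00722. The 3 higher were ARG2, the methionine sulfoxide reductase MSRB3 and AMOTL2, a regulator of Hippo signalling. Several lower genes that are named here after their values were seen have established roles. STAT3, the transcription factor of interleukin-6 type signals, was at 195, 150 and 178 CPM with esiCT under OXPT and at 82.4, 95.9 and 116 CPM with esiHDAC4 (-0.83 ± 0.21 SE), and IL27RA, a cytokine receptor chain that signals through JAK and STAT proteins, was at 45.0, 47.3 and 106 CPM and at 12.8, 21.4 and 33.5 CPM (-1.55 ± 0.39 SE). TERF1, a telomere-binding protein, went from 40.8, 38.6 and 51.7 CPM to 26.6, 26.3 and 20.8 CPM, and GNL3L, a nucleolar GTPase, from 99.6, 98.6 and 76.2 CPM to 50.6, 57.0 and 43.1 CPM. TMBIM6, an anti-apoptotic protein of the endoplasmic reticulum, went from 633, 481 and 718 CPM to 311, 336 and 468 CPM, and SVIP, an inhibitor of endoplasmic reticulum-associated degradation, from 34.4, 33.4 and 78.6 CPM to 12.4, 18.2 and 29.9 CPM. In these 6 genes the groups did not overlap under OXPT, where 2.51% of all genes were lower without overlap. SVIP went from a difference of -1.27 to -0.75 without esiCT OXPT replicate 3 and to -1.15 without number 3 of both OXPT groups, and IL27RA from -1.55 to -1.03 and -1.43. Without esiCT OXPT replicate 3 STAT3 was at -0.81, TERF1 at -0.69, GNL3L at -0.97 and TMBIM6 at -0.58. The count of 37 was 2 without esiHDAC4 untreated replicate 1 and 16 without replicate 2, 6 without esiHDAC4 OXPT replicate 1, 17 without replicate 2 and 84 without replicate 3, 19 without esiCT untreated replicate 1 and 59 without WT untreated replicate 3.

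Part of the messages that were lower shared a word of letters in their 3′ UTRs, a feature that was looked at after the values were seen. Short interfering RNAs and miRNAs are known to bind 3′ UTRs through their seed, bases 2 to 8 counted from their 5′ end, so words of 6 and 7 letters were counted in the 3′ UTRs of 11239 tested genes (the Ensembl canonical transcript of GENCODE 44, sense strand, stop codon left out). For each word found in at least 200 of these 3′ UTRs, the mean log2 fold change of genes with it was set against that of genes without it, after linear adjustment for 3′ UTR length and GC content. Of 13945 words of 7 letters, ACTGCAT ranked 2 from the lowest under OXPT with a difference of -0.11, ranked 1 without esiCT OXPT replicate 3 (-0.09) and ranked 1 in untreated cells (-0.13). Of 4075 words of 6 letters, its last letters, CTGCAT, ranked 4, 1 and 1 in the same order. The word that ranked 1 under OXPT was TCGCGCC, present in 226 of the 3′ UTRs, and it ranked 8 without replicate 3. With #11 and OXPT against the same esiCT OXPT libraries, ACTGCAT ranked 2905 with a difference of -0.03 and TCGCGCC ranked 2.

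The sites of 12 lower genes are shown because they let the shared word be read in its surroundings, 1 site for each gene. Each line gives 28 letters of hg38 in the sense of the message, with the word in capitals, first for genes with the 7-letter word and then for those with the 6-letter word alone.
TCF7, chr5:134147950-134147977 (+): tgggtaacagggagACTGCATctcaaaa
WRNIP1, chr6:2785662-2785689 (+): aattgtgatttaatACTGCATagtgttt
SNX12, chrX:71060577-71060604 (-): ccctgcctttcctaACTGCATgtatttt
PURA, chr5:140117324-140117351 (+): tggaatgcttatcaACTGCATgtaaaca
STAT3, chr17:42313454-42313481 (-): ctgctgtcctggccACTGCATtcaaatt
IL27RA, chr19:14052919-14052946 (+): agaaaagaaaaaacACTGCATttgggca
SVIP, chr11:22822820-22822847 (-): gtgaatatacatacACTGCATgtaaaca
TRIAP1, chr12:120444107-120444134 (-): agtgaattgtcaacCTGCATatcctaaa
CIAPIN1, chr16:57428551-57428578 (-): aggtattaaacttgCTGCATatcttgac
C2orf68, chr2:85608814-85608841 (-): gacccccagagctgCTGCATccataggg
UBE2R2, chr9:33917635-33917662 (+): ggagttcacaagtgCTGCATatactggg
KDM2B, chr12:121429269-121429296 (-): ctagttgtaaagttCTGCATttataagt

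The HDAC4 message itself, the target of the esiRNA, holds the 7-letter word 1 time in the 8461 letters of its canonical transcript, in the coding part and not in the 3′ UTR. It holds the 6-letter word 2 times, 1 of them in the 3′ UTR.
HDAC4, chr2:239163823-239163850 (-): ccggaatctgaaccACTGCATttccagc
Counted back from the end of the word, the STAT3 site has 9 letters equal to this stretch, IL27RA and SVIP have 8, and TCF7, WRNIP1, SNX12 and PURA have 7, the word alone. Of 2545 mature human miRNAs in the RefSeq table, 0 have bases 2 to 8 equal to the reverse complement ATGCAGT, and 0 have bases 2 to 7 that pair with the 6-letter word. The sites were chosen after the values were seen, and how often such matches of letters arise by chance was not tested. The esiRNA sequences were not used here, and the part of esiRNAs or of miRNAs in these differences was not tested.

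In counts, CTGCAT stood in the 3′ UTR of 39.4% of the 11239 genes (4426) and ACTGCAT in 13.8% (1546). Of the 240 genes lower at unadjusted edgeR p under OXPT with a 3′ UTR, 156 (65%) held the 6-letter word and 79 (32.9%) the 7-letter word. Of the 81 higher, 28 (34.6%) and 6 (7.41%) did. The 6-letter word was in 7 of 7 protein-coding genes that DESeq2 called lower, in 20 of 20 called lower with the replicate block, 13 of these with the 7-letter word, and in 33 of 34 called lower on average over both states, the exception being RBPMS2. Among the 10 higher genes named above besides ARG2, 4 held the 6-letter word and 0 the 7-letter word. Over all 1546 genes with ACTGCAT the median log2 fold change under OXPT was -0.009, beside 0.015 over the 11239 genes. Of these 1546 genes 51.2% were below 0, beside 47.5% of the 11239. These are matches of letters and were not tested as binding sites.

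Longer 3′ UTRs hold any word more often, so the genes were also taken in 3 classes of 3′ UTR length, up to 764 letters, up to 2187 letters and above. In the shortest class the share of genes lower at unadjusted p was 1.34% of 3364 without the 6-letter word, 5.02% of 299 with it alone and 14.3% of 84 with the 7-letter word. In the middle class the shares were 1.14%, 2.68% and 7.54%, and in the longest class 1.12%, 2.24% and 3.48%. The order was the same in every class without esiCT OXPT replicate 3, at 0.178%, 3.68% and 8.33% in the shortest, 0.547%, 1.65% and 5.78% in the middle and 0.559%, 1.74% and 2.07% in the longest. Untreated cells gave 1.52%, 4.01% and 19.0% in the shortest class, 1.85%, 3.30% and 10.3% in the middle and 0.652%, 1.49% and 4.04% in the longest. For #11 under OXPT the shares were 3.72%, 4.35% and 1.19%, then 3.16%, 3.50% and 3.02%, then 4.94%, 2.61% and 3.20%, with no such order.

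The word was picked by its rank without esiCT OXPT replicate 3, with its rank in untreated cells known, so the shares above describe that choice and are no separate support for it. Of the 84 genes that were lower at unadjusted p without the 6-letter word, 10 encode subunits of the respiratory chain or ATP synthase, as do 3 of the 156 with it and 73 of the 12356 genes tested (0.591%). The word is rarer in such subunits to begin with. It was in 6 of 34 subunits of complex I (17.65%) and in 10 of 39 of complexes II to V (25.6%), beside 39.4% of all genes with a 3′ UTR. The medians of the 84 in pairs 1, 2 and 3 were -0.48, -0.35 and -1.09, and those of the 156 were -0.70, -0.52 and -0.71.

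Subunits of oxidative phosphorylation were lower under OXPT, by an amount that changed with the libraries numbered 3. Of 39 measured subunits of complexes II to V, 35 were lower and 11 had an unadjusted edgeR p under 0.05, with a median log2 fold change of -0.52, where 2.27% of all genes were lower at that p. All 3 pairs went down in 20 of the 39, where 18.2% of all genes did. Without esiCT OXPT replicate 3 the median was 0.09, without number 3 of both groups it was -0.11, and the medians of pairs 1, 2 and 3 were -0.21, -0.01 and -0.95. COX6B1, a subunit of cytochrome c oxidase, was at 190, 262 and 842 CPM with esiCT and at 96.3, 181 and 254 CPM with esiHDAC4 (-1.28 ± 0.41 SE, -0.35 without control replicate 3, -0.71 without number 3 of both groups). COX8A, another subunit, was at 52.2, 64.8 and 200 CPM and at 31.3, 54.5 and 54.1 CPM (-1.18 ± 0.39 SE, then -0.33 and -0.45). Control replicate 3, the library with 22.3% of reads unmapped, was the high value in both genes, and the part of its read loss in these values was not tested. The 34 measured subunits of complex I had a median of -0.34, of 0.11 without the control library and of -0.06 without both libraries, and 13 were lower in all 3 pairs. The same values were -0.24, 0.34 and 0.06 for the 52 cytosolic ribosomal proteins and -0.20, -0.23 and -0.05 for the 15 transcripts of the mitochondrial genome.

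NRF2 targets were the list that stood highest with and without that library. NRF2 drives glutathione and thioredoxin enzymes under oxidative stress. Of 15 measured members 11 were higher, and these 11 were higher in all 3 pairs, where 19.3% of all genes were. The median log2 fold change was 0.49, 0.52 without esiCT OXPT replicate 3, 0.55 without number 3 of both groups and 0.01 in untreated cells. The medians of pairs 1, 2 and 3 were 0.76, 0.22 and 0.40, so that pair 1 was the highest. TXNRD1, thioredoxin reductase, was at 311, 212 and 263 CPM with esiCT and at 613, 283 and 348 CPM with esiHDAC4 (0.66 ± 0.28 SE, unadjusted edgeR p of 0.0286). OSGIN1, a growth inhibitor induced by oxidative stress, was at 53.8, 35.8 and 72.6 CPM and at 161, 68.7 and 137 CPM (1.18 ± 0.52 SE). SLC7A11, the cystine transporter, was at 14.7, 3.90 and 3.10 CPM and at 49.2, 10.7 and 5.83 CPM (1.57 ± 0.78 SE), and GCLM, a subunit of the enzyme that makes the glutathione precursor, at 29.8, 19.2 and 46.2 CPM and at 78.8, 28.2 and 49.7 CPM (0.72 ± 0.38 SE). The groups of all 4 genes overlapped, each gene was higher with esiHDAC4 within every pair, and 2 members reached an unadjusted p under 0.05. Without control replicate 3 the differences were 0.67 for TXNRD1, 1.45 for OSGIN1, 1.24 for SLC7A11 and 1.10 for GCLM. Over 37 alternatives of the processing the values ranged from 0.28 to 0.86 for TXNRD1 and from 0.94 to 1.45 for OSGIN1. For SLC7A11 they ranged from 0.19 to 2.62. SLC7A11 varied more between replicate numbers than between esiRNAs.

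The lists of cell death and DNA repair given here had medians from -0.09 to 0.10 with all libraries. Several of these medians changed without esiCT OXPT replicate 3. Of 39 p53 targets 24 were higher, 14 of them in all 3 pairs, where 19.3% of all genes were. The median of the list was 0.10 on the log2 scale, or 0.14 without esiCT OXPT replicate 3. Its medians in pairs 1, 2 and 3 were 0.13, 0.14 and -0.12. The 8 measured BH3-only genes, which encode the proteins that start mitochondrial apoptosis, had a median of -0.02, of 0.31 without esiCT OXPT replicate 3 and of 0.17 without number 3 of both groups. PMAIP1, which encodes NOXA, was at 84.4, 72.4 and 84.0 CPM with esiCT and at 131, 89.4 and 88.8 CPM with esiHDAC4 (0.36 ± 0.40 SE). BBC3, which encodes PUMA, was at 114, 114 and 116 CPM and at 128, 147 and 148 CPM (0.30 ± 0.40 SE). Both were higher without overlap between the groups, by less than the standard error of the fit, and without control replicate 3 they were at 0.40 and 0.31. Of all genes 2.1% were higher without overlap. The 12 measured caspases and apoptosome genes had a median of -0.01 and the 13 death receptor genes of -0.03, and without control replicate 3 these were 0.004 and -0.05. The 23 genes of homologous recombination had a median of 0.04, or -0.18 without replicate 3. RPA2, a subunit of the protein that coats single-stranded DNA, was at 61.1, 50.5 and 65.7 CPM and at 42.0, 43.1 and 48.9 CPM (-0.40 ± 0.17 SE, -0.32 without control replicate 3). The 32 DNA replication genes had medians of -0.09 and -0.26 in the same order, and the 27 genes of G2 and mitosis of 0.02 and -0.20.

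Of the genes that the study used as primers or reporters, none passed a test. AREG, which encodes the EGF receptor ligand amphiregulin, was at 427, 461 and 1992 CPM with esiCT and at 554, 544 and 722 CPM with esiHDAC4, so that its log2 fold change of -0.66 ± 0.68 (SE) became 0.45 without replicate 3 and 0.30 without number 3 of both groups. ICAM1 was at 0.50 ± 0.39 (SE), ELF3 at 0.00, ERRFI1 and RNF43 at -0.12 and NR4A2 at 0.08, with 69% of the exon bases of RNF43 shared with other genes. Without control replicate 3 these were 0.26 for ICAM1, 0.33 for ELF3, -0.15 for ERRFI1, 0.30 for RNF43 and 0.26 for NR4A2. RNF43 thus turned, and so did ELF3, which was at -0.0026 with all libraries. ADGRF3 and TMEM74 had at most 27 counts in any of the 6 libraries. The 61 measured genes of the study's first super-enhancer list and the 24 of its second each had a median log2 fold change of 0.08, beside 0.005 over all genes tested. Without esiCT OXPT replicate 3 these medians were 0.07 and 0.06, beside 0.05 over all genes. The 14 measured NF-kB targets had a median of 0.29, of 0.27 without control replicate 3 and of 0.02 without number 3 of both groups. Pair 3 alone had a median of 0.65, and the other 2 pairs of 0.00 and 0.02. NFKB1, which encodes a subunit of NF-kB, went down instead, from 31.7, 32.4 and 26.4 CPM to 20.2, 20.6 and 21.1 CPM (-0.55 ± 0.22 SE, without overlap, and -0.63 without control replicate 3). Of all genes 2.51% were lower without overlap.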

How the data were processed

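The authors deposited raw counts per gene for each library as whole numbers in the layout of STAR gene counts, without normalisation or filtering. The submitters' processing notes name Trimmomatic 0.39, STAR 2.7.11a and hg38; the study's methods describe salmon and DESeq2 instead, so these counts are not the values tested there. Of 62757 gene identifiers 99.8% had a symbol in GENCODE 44. Forward and reverse columns held nearly equal totals, so the unstranded column was used, and overlapping genes cannot be told apart. Groups were taken from the labels; 12 wild-type libraries with conflicting entries were not analysed here.

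The tests were run by edgeR 4.0.16 under R 4.3.3 (TMM, robust quasi-likelihood F test, 24 libraries of 8 groups, no block) on the 12356 genes with a mean count of at least 64 in 1 group or more. Adjusted p-values are Benjamini-Hochberg values over all genes tested. Genes were called at a fold change over 1.5 with an adjusted p under 0.05. SEs are approximate and were derived from F. DESeq2 1.42.0 and the replicate block were alternatives, and DESeq2 gave no adjusted p for 12 genes. Libraries of the same number deviated together from their group means (correlations over genes of 0.77, 0.71 and 0.76 under OXPT and 0.28, 0.79 and 0.72 untreated), so the numbers were taken to pair them. Permutation tests used SciPy 1.17.1. No 2 of the libraries agreed within sampling noise (chi-square per degree of freedom 14.9 to 212). Code was tested on simulated data. Depth limits counting precision and also bears on which genes reach the count minimum.

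The named genes are the class IIa HDACs, genes called under OXPT by edgeR or DESeq2, the 10 lowest p-values in each direction among genes whose groups both averaged 64 counts or more and did not overlap, up to 4 members of each list described, and the study's targets; 1 gene that the rule names is not reported here. Members and lists were chosen with earlier results of these data known. The super-enhancer lists come from the study, and the others were written from general knowledge.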

Additional observations from a re-analysis of the deposited data

Results flagged for a closer look

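ZFP36L1, which encodes a protein that binds AU-rich elements and speeds mRNA decay, was lower in every OXPT pair and higher in every untreated pair. It was at 160, 158 and 312 CPM with esiCT under OXPT and at 153, 122 and 140 CPM with esiHDAC4 (log2 fold change -0.60 ± 0.24 SE), and at 202, 144 and 196 CPM and 251, 169 and 208 CPM in untreated cells (0.21 ± 0.24 SE). The interaction was -0.81 ± 0.34 (SE), with an unadjusted edgeR p of 0.0277 and an adjusted p of 1.00, so the difference between the states did not pass. Without KO esiCT OXPT replicate 3 the OXPT value was -0.19.

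The ATF4 targets, genes of the amino acid and integrated stress responses, had a median log2 fold change of 0.14 under OXPT, with every pair up (0.20, 0.34 and 0.19), and of -0.23 in untreated cells, with every pair down (-0.35, -0.31 and -0.14). Under OXPT 15 of 17 measured members were higher and 0 had an unadjusted p under 0.05, with CHAC1 at 0.99, ASNS at 0.94 and ATF4 itself at 0.36. The difference of the list between the states was not tested. Its median under OXPT was 0.20 without KO esiCT OXPT replicate 3.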

How the results depend on the processing

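Under OXPT the count of calls was 0 in the main analysis and in 24 analyses that each left out 1 library of the fit (0 to 0). It was 9 with DESeq2, 6 without the count minimum, 23 by DESeq2 with the replicate block, 4 by DESeq2 without KO esiCT OXPT replicate 3 and 1 without the libraries numbered 3. With the replicate block edgeR gave 0 under OXPT, 4 untreated and 91 averaged over both states, against 0, 1 and 37 without it. Untreated calls were 2 with the reverse-strand column, 2 with RLE factors, 32 with DESeq2, 3 without the count minimum, 0 with only the 6 libraries compared, 71 by DESeq2 with the block, 38 by DESeq2 without KO esiCT OXPT replicate 3, 47 without the libraries numbered 3, and 0 to 3 with 1 library left out. The block gave 576 with only the libraries compared, 5 without KO esiCT OXPT replicate 3 and 12 without number 3 of both OXPT groups. Averaged calls in the same order of settings were 110 with DESeq2, 77 without the count minimum, 2 with only the libraries compared, 167, 72, 253 and 2 to 84, and with the block 153, 62 and 84. The interaction gave 0 in each. The averaged contrast, DESeq2 with the block or without a library, and leaving out number 3 were chosen after the data were seen. The causes were not tested.

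HDAC4 kept its direction in all 36 alternatives (-0.82 to -0.62, adjusted p 0.41 to 1 by edgeR or DESeq2) and has no value where both groups need a mean count of 64. ARG2 and ENSG00000291214 have none there either. Gene values turned as follows. In the block without KO esiCT OXPT replicate 3, LDHB was 0.0071, NDUFB2 0.025, AREG 0.18, BID 0.031, HDAC5 0.0088, RNF43 0.27 and HDAC7 -0.16; in the block without number 3 of both groups, NDUFB2 was 0.0058, AREG 0.30, RNF43 0.073 and HDAC7 -0.10. DESeq2 without KO esiCT OXPT replicate 3 gave NDUFB2 0.029, AREG 0.44, HDAC5 0.046, RNF43 0.29, HDAC7 -0.18 and ELF3 0.32. Without the libraries numbered 3, NDUFB2 was 0.0067, AREG 0.30, RNF43 0.067 and HDAC7 -0.11. The reverse-strand column gave ICAM1 -0.085, and no count minimum ELF3 0.039. With 1 library left out, the values ranged from -0.47 to 0.33 for ELF3, -0.35 to 0.30 for RNF43, -0.17 to 0.27 for HDAC7, -0.25 to 0.053 for ERRFI1, -1.12 to 0.037 for NDUFB2, -1.02 to 0.45 for AREG, -0.40 to 0.0024 for BID, -0.20 to 0.056 for HDAC5 and -0.038 to 0.26 for NR4A2. Of the list medians 108 values moved beyond the spread of the pairs and 1150 did not.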
